A study of Homo sapiens with 6 samples.

Results

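The potassium channel genes described here are the 95 protein-coding genes whose symbol is KCN followed by further letters and a number, taken by name alone out of 57123 genes in the count tables of HEK293 cells. The rule itself uses no measured value, but it was set with earlier results of these data known. They encode pore subunits that are opened by voltage, by calcium or sodium, or by the potential at which potassium flows inwards, the tandem-pore channels that leak potassium at rest, and the auxiliary subunits that bind to some of these pores. The proteins were not measured, and the values below are levels of RNA.

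RNA from 6 libraries was counted, 3 of wild-type cells (WT) and 3 of cells labelled MUL1(-/-), in which the gene of the mitochondrial E3 ubiquitin ligase MUL1 had been inactivated earlier with CRISPR-Cas9. HEK293 is an established human embryonic kidney line that carries adenoviral DNA. All cells were untreated and were grown in DMEM with fetal calf serum, and the genotype is the only labelled difference between the groups. The comparison asks which channel genes HEK293 cells transcribe and whether their levels differ when MUL1 is lost. The study worked with more than 1 clone of each genotype in its protein blots, and the sources used here do not say which clones gave the RNA, so differences between clones and differences between genotypes cannot be told apart, and the p-values measure the spread between these libraries.

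Counts summed over genes ranged from 127015142 to 142803296 in WT and from 121917971 to 122441959 in MUL1(-/-), and a single count was worth 0.00707 to 0.00807 CPM. CPM is a gene's count divided by its library's total in units of 1e+06 counts after scaling by TMM, which makes libraries of different composition comparable, and it is not corrected for gene length. The MUL1 transcript itself stood at 15.4, 15.2 and 19.0 CPM in WT and 18.7, 16.7 and 19.2 CPM in MUL1(-/-), so its counts do not check the genotype labels. The HEK293 genes VIM, KRT8, KRT18 and NEFL had mean levels of 842, 324, 91.7 and 121 CPM in WT and 665, 169.7, 92.2 and 97.7 CPM in MUL1(-/-), while NEFM was higher there (1.74 against 3.64 CPM) and PAX2 lower (9.46 against 2.72 CPM). Markers of blood summed to 0.410 to 0.595 CPM in WT and 0.949 to 1.33 CPM in MUL1(-/-), with CD3E at 0 in WT, and those of endothelium to 0.0953 to 0.247 and 0.460 to 0.711 CPM. PTPRC and 1 other of the 4 blood markers and PECAM1 and VWF of the 3 endothelial ones passed both thresholds as higher in MUL1(-/-). None of the 5 mature nephron and 3 liver markers did, and 4.23% of all tested genes were higher at both thresholds. For PTPRC, PECAM1 and VWF, only in MUL1(-/-) did every library reach the minimum of the filter on low counts. That is the group where they were higher, so their adjusted p is no independent support. The part of the blood and endothelial markers in the results on weakly counted channel genes was not tested.

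Potassium channels set the resting potential of a cell and repolarize it after excitation. Voltage-gated pores assemble from 4 subunits, and the subunits of the KCNF, KCNG, KCNS and KCNV families form no working channel alone but join KCNB subunits. HEK293 cells are widely used as a host for cloned channels, and their own voltage-gated potassium currents are small.

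The stretch upstream of the RefSeq start is shown for 4 of the genes that passed both thresholds below, 3 that were lower in MUL1(-/-) and 1 that was higher. The reason is that a GC box (GGGCGG on either strand) was the commonest of the 3 promoter motifs searched. Each stretch is 250 bases from RefSeq (GRCh38.p14), read 5' to 3' on the gene's strand. It ends at the base before the RefSeq start, with the GC boxes in capitals. In GENCODE 29, the gene annotation used here, KCNC4 starts farther on, at 110211343, and so does KCND2, at 120273668. The stretches come from chr1:110210064-110210313 (+) for KCNC4, chr19:38319595-38319844 (+) for KCNK6, chr1:154870282-154870531 (-) for KCNN3 and chr7:120272925-120273174 (+) for KCND2.
KCNC4: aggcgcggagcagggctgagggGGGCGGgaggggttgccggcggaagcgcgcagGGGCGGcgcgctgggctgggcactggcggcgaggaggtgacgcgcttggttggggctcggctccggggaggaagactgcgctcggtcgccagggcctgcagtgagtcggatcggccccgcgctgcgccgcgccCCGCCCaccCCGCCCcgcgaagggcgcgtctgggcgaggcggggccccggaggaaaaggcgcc
KCNK6: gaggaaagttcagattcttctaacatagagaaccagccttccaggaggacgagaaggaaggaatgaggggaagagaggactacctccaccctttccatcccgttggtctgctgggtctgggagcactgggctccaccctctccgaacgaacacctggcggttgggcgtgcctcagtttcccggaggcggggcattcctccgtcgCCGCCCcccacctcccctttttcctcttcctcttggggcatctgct
KCNN3: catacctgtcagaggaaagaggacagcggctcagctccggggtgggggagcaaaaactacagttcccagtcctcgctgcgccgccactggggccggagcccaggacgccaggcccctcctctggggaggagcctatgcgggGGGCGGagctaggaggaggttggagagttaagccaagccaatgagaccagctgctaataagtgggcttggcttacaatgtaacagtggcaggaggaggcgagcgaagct
KCND2: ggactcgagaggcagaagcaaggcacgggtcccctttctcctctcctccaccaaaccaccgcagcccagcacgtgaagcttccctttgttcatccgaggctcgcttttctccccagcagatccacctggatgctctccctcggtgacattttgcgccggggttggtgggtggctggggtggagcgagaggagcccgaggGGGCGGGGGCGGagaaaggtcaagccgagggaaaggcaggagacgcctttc

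KCNC4 had 4 GC boxes in a stretch of 79.2% G and C, KCND2 had 2 in a stretch of 63.6%, and KCNK6 and KCNN3 had 1 each. KCNN3 has further RefSeq promoters, not shown, and these had no GC box. In the RefSeq table, 71 of the 95 genes matched, with 109 promoters of 300 bases between them. The letters GGGCGG, on either strand, were in 51.4% of these promoters and in 45.0% of all 35116 promoters of the table. They were in 56.6% of the promoters of channel genes at 1 CPM or more in either genotype and in 46.4% of those under it. CCAAT was in 43.4% and 26.8% of these 2 sets and in 34.6% of all promoters, and TATAAA in 9.43%, 7.14% and 11.5%. The motifs do not overlap one another in their letters, and a match describes the sequence only.

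At a mean of 1 CPM or more, 38 of the 95 genes were found in WT and 38 in MUL1(-/-), 35 of them in both, so that 41 genes reached this level in either genotype and 54 in neither. KCNA3 was the member just above 1 CPM in both genotypes (1.19 ± 0.075 in WT against 1.00 ± 0.22 in MUL1(-/-), mean ± SD of 3 libraries), and KCNAB1 in WT (0.981 ± 0.11 CPM) and KCNK12 in MUL1(-/-) (0.959 ± 0.31 CPM) were just under it. KCNJ2, KCNK6 and KCNN3 reached it in WT alone, and KCND2, KCNH4 and KCNAB1 in MUL1(-/-) alone. KCNA6, a voltage-gated pore gene, had no bin of its own, since its exons share their only bin with GALNT8, where 31 to 107 counts fell.

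**Figure D1:**
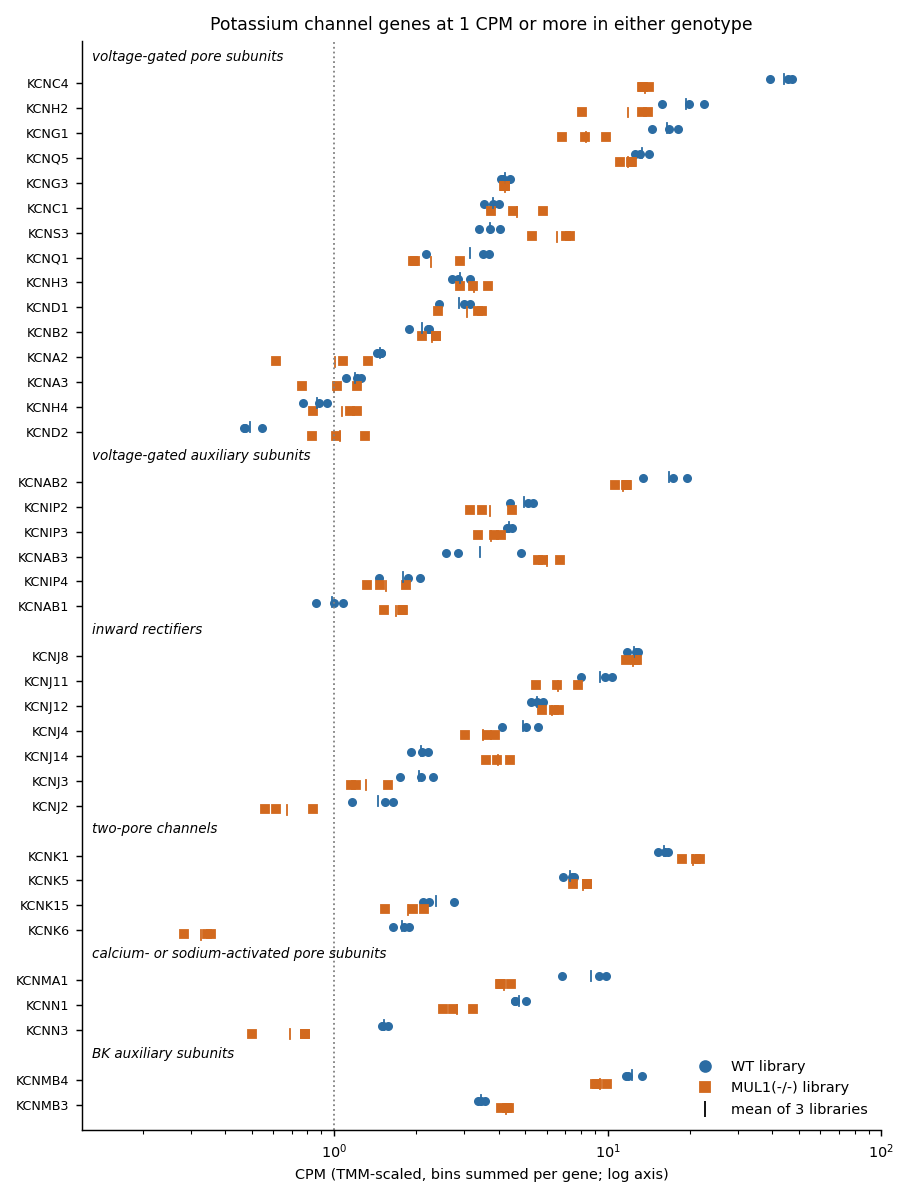
Levels of 37 of the 41 potassium channel genes at 1 CPM or more in either genotype, by class (vertical axis) and in TMM-scaled CPM on a log axis (horizontal). Circles are the 3 WT libraries, squares the 3 MUL1(-/-) libraries, vertical ticks the means and the dotted line 1 CPM; KCNC4 is the highest drawn in WT and its genotypes lie apart, as do those of KCNK6 farther down.

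Summed over all members, the channel genes took 355, 336 and 310.1 CPM in WT and 253, 252 and 219.8 CPM in MUL1(-/-). The values of the genotypes did not overlap. In bulk RNA, fewer cells with a transcript and less of it per cell cannot be told apart. The voltage-gated pore subunits held 59.7% in WT and 49.8% in MUL1(-/-) of that sum, with 214, 202 and 182 CPM in WT and 125, 128 and 107 CPM in MUL1(-/-). KCNC4 alone made up 44.0 ± 4.31 CPM in WT against 13.7 ± 0.472 CPM in MUL1(-/-) of the sum (SD, n = 3 for each). All 95 genes together held 0.0326% of the gene counts in WT and 0.0248% in MUL1(-/-).

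Levels of different genes were compared per kb of exon, and this is a different order. KCNJ8 (5.02 ± 0.25 CPM per kb, SD, n = 3) led in WT, and KCNK1 (4.42 ± 0.20) was also high. KCNH2 (3.29 ± 0.57 CPM per kb), KCNG1 (3.03 ± 0.33) and KCNJ11 (2.93 ± 0.40) were lower and lay within each other's spread. In MUL1(-/-) the order began with KCNK1 (5.67 ± 0.44 CPM per kb) and KCNJ8 (4.98 ± 0.23), while KCNC4 went from 12th (1.76 ± 0.17) to 25th (0.546 ± 0.019). On this scale 17 genes reached 1 CPM per kb in WT and 18 in MUL1(-/-).

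Of the 94 genes with bins of their own, 66 passed the filter on low counts and were tested. Among them, 6 were lower and 3 higher in MUL1(-/-) when both an adjusted p under 0.05 and a log2 fold change beyond 1 in size were asked, where 3.87% and 4.23% of all 25125 tested genes were lower and higher (8.11% in either direction). At a mean of 1 CPM or more, 2.71% and 1.83% of 15858 genes were. DESeq2 gave 6 lower and 5 higher members, beside 3.13% and 3.7% of its 27753 genes, and edgeR with no filter on low counts gave 7 and 10, beside 2.39% and 3.42% of 45330. At an adjusted p alone, 16 fell and 11 rose, against 18.7% and 18.8% of all tested genes (37.5% in either direction), and 39 did not pass. The genotypes shared no range of values in 21 genes that were lower and 13 that were higher, where this held for 24.4% and 24.1% of all tested genes. The median log2 fold change of the 66 genes was -0.08 and that of all tested genes -0.01. Among the 41 genes at 1 CPM or more, 15 fell, 7 rose and 19 did not pass, where 24.3% of the 16214 genes at that level fell and 22.8% rose. KCNE3 and KCNA1 passed the filter only through their counts in MUL1(-/-), and KCNK9 and KCNE5 only through theirs in WT.

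**Figure D2:**
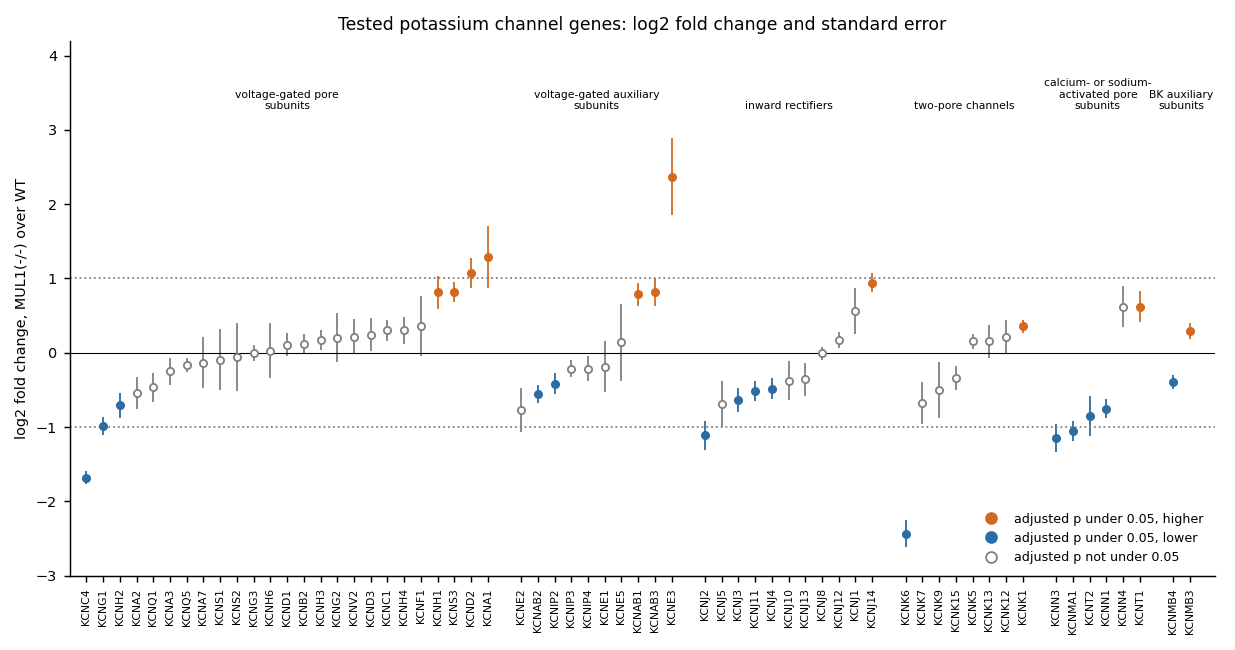
Log2 fold change of MUL1(-/-) over WT with its standard error for 62 of the 66 tested potassium channel genes, in order within each class. Filled points passed an adjusted p under 0.05 (15 lower, 11 higher), open points did not, and the dotted lines mark a log2 fold change of 1 in each direction; KCNK6 is the lowest and KCNE3, which is weakly counted, the highest.

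Voltage-gated pore subunits were the largest class, with 40 genes, of which 17 reached 1 CPM in WT and 19 in MUL1(-/-). Of the 29 tested, 4 fell and 4 rose at the adjusted p, and 2 in each direction passed both thresholds. Of all 25125 tested genes, 18.7% fell and 18.8% rose at the adjusted p, and 3.87% and 4.23% passed both thresholds.

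KCNC4 encodes a pore of the Shaw family, whose channels open at strongly positive potentials and close fast. It lies at chr1:110211343-110283100 on the plus strand. Its level was 45.5, 47.4 and 39.1 CPM in WT and 13.3, 13.5 and 14.2 CPM in MUL1(-/-). The lowest WT library was far above the highest MUL1(-/-) library, and the log2 fold change was -1.69 ± 0.087 (standard error, adjusted p = 1.97e-09), which is 3.22-fold lower. It had the smallest adjusted p of all the members, and all 19 alternatives gave a log2 fold change between -1.82 and -1.61. All 18 of its bins with at least 30 counts in all were lower in MUL1(-/-), 17 of them without overlap, with log2 ratios from -2.85 to -0.89. Bins of a gene share reads and add up to the level already tested, so they are no independent support, here or for the genes below. The share of such bins over all genes was not computed. The longest bin of KCNC4, of 15080 bases, held 46.7% of its counts in WT and 42.1% in MUL1(-/-). Its 20 nearest tested genes had a median log2 fold change of 0.0052. KCNC1, a further Shaw gene, stood at 3.83, 3.54 and 4.02 CPM in WT and 5.79, 4.5 and 3.74 CPM in MUL1(-/-) and did not pass the test (adjusted p = 0.122; 0.0120 without the third MUL1(-/-) library), and KCNC2 was under the filter on low counts.

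KCNQ5, a subunit of the M current, a slow current of neurons that is shut by muscarinic receptors, did not pass the test. It stood at 13.2, 14.2 and 12.6 CPM in WT and 12.3, 12.2 and 11.1 CPM in MUL1(-/-); the genotypes did not overlap (adjusted p = 0.167). KCNQ1, the pore of the slow delayed rectifier of the heart, stood at 3.52, 3.70 and 2.17 CPM in WT and 1.94, 1.97 and 2.88 CPM in MUL1(-/-). Here the third library of each genotype lay on the far side of the others, and the adjusted p was 0.0758, against 0.00596 without the third WT library and 0.00850 without the third MUL1(-/-) library. KCNQ3, a further subunit of the M current, was under the filter on low counts, with at most 6 counts in a library.

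Among the genes of the ether-a-go-go family, KCNH2 (hERG), the rapid delayed rectifier of the heart, stood at 22.5, 19.8 and 15.8 CPM in WT and 13.4, 14.0 and 8.07 CPM in MUL1(-/-). Every MUL1(-/-) library was under the lowest WT library, and KCNH2 fell with a log2 fold change of -0.71 ± 0.17 (standard error, adjusted p = 0.00390). KCNH3 stood at 3.14, 2.84 and 2.71 CPM in WT and 3.23, 3.67 and 2.88 CPM in MUL1(-/-) and KCNH4 at 0.944, 0.884 and 0.770 CPM in WT and 1.15, 0.839 and 1.22 CPM in MUL1(-/-), and neither passed. KCNH1 rose from a level under 1 CPM, but 88.3% of its counts fell in bins that an opposite-strand or overlapping gene also touches.

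Of the silent subunits, which modify KCNB channels, KCNG1 fell and KCNS3 rose at the adjusted p, where 18.7% and 18.8% of all tested genes did. KCNF1, KCNG2, KCNG3, KCNS1, KCNS2 and KCNV2 were tested and did not pass. KCNG1 stood at 18.1, 16.8 and 14.5 CPM in WT and 8.24, 9.85 and 6.84 CPM in MUL1(-/-). The groups were apart, and KCNG1 fell with a log2 fold change of -0.99 ± 0.13 (standard error, adjusted p = 2.19e-05), just inside the fold threshold, with 13 of 15 bins lower without overlap. It was past the threshold in the most counted bin (-1.08), without the third WT library (-1.07) and without the second MUL1(-/-) library (-1.12). KCNG3 stood at 4.16, 4.38 and 4.09 CPM in WT and 4.22, 4.17 and 4.22 CPM in MUL1(-/-), and the genotypes overlapped (-0.0020 ± 0.11 (standard error, adjusted p = 0.991)). KCNS3 stood at 4.03, 3.73 and 3.40 CPM in WT and 7.02, 7.30 and 5.31 CPM in MUL1(-/-). All 3 MUL1(-/-) libraries were above all WT libraries, and KCNS3 rose with a log2 fold change of 0.82 ± 0.13 (standard error, adjusted p = 1.95e-04). KCNB2, which encodes a partner pore, stood at 2.22, 2.21 and 1.87 CPM in WT and 2.36, 2.37 and 2.10 CPM in MUL1(-/-) and did not pass (adjusted p = 0.541).

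The Shaker genes were low. KCNA2 stood at 1.48, 1.49 and 1.44 CPM in WT and 1.08, 1.33 and 0.613 CPM in MUL1(-/-) without overlap (adjusted p = 0.0617; 0.0154 without the second MUL1(-/-) library), and KCNA3, a channel best known in T cells, at 1.21, 1.26 and 1.11 CPM in WT and 1.03, 1.21 and 0.767 CPM in MUL1(-/-). KCNA1 had 0.0394, 0.0636 and 0.0953 CPM in WT and 0.134, 0.224 and 0.129 CPM in MUL1(-/-), that is 5, 9 and 12 counts against 17, 28 and 16. The genotypes did not overlap, and the log2 fold change was 1.29 ± 0.42 (standard error, adjusted p = 0.0251). KCNA1 passed the filter on low counts only through MUL1(-/-), the group where it was higher, so its adjusted p is no independent support. It was no longer past the thresholds with DESeq2 (adjusted p = 0.0795), without the first WT library (1.03, adjusted p = 0.110), without the second WT library (1.26, adjusted p = 0.0797) or without the second MUL1(-/-) library (1.00, adjusted p = 0.144).

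The Shal genes carry the transient A-type current. KCND2 stood at 0.472, 0.544 and 0.468 CPM in WT and 1.02, 1.29 and 0.831 CPM in MUL1(-/-). All MUL1(-/-) libraries were above the WT libraries, and the log2 fold change was 1.08 ± 0.20 (standard error, adjusted p = 6.44e-04); without the second MUL1(-/-) library it was 0.91. Its 20 nearest tested genes had a median of -0.25, and 2 of its 4 bins with at least 30 counts were higher without overlap. KCND1 stood at 2.99, 2.43 and 3.15 CPM in WT and 3.46, 3.36 and 2.40 CPM in MUL1(-/-) and did not pass, nor did KCND3, which was under 1 CPM in both genotypes.

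Auxiliary subunits of the voltage-gated pores numbered 12, of which 5 reached 1 CPM in WT and 6 in MUL1(-/-), with sums of 33.7, 33.2 and 32.0 CPM in WT and 30.9, 28.8 and 26.6 CPM in MUL1(-/-). The beta subunits KCNAB1, KCNAB2 and KCNAB3 are related to aldo-keto reductases and bind Shaker pores from the cytoplasm. KCNAB2 stood at 19.5, 17.3 and 13.4 CPM in WT and 11.8, 11.7 and 10.6 CPM in MUL1(-/-). It fell, without overlap, with a log2 fold change of -0.56 ± 0.12 (standard error, adjusted p = 0.00174), and its 20 nearest tested genes had a median of -0.67. KCNAB3 stood at 2.57, 2.85 and 4.83 CPM in WT and 6.73, 5.78 and 5.56 CPM in MUL1(-/-). It rose with a log2 fold change of 0.82 ± 0.19 (standard error, adjusted p = 0.00278), its neighbours had a median of 0.51, and without the third WT library, the highest of its group, the log2 fold change was 1.15. KCNAB1 stood at 0.858, 1.00 and 1.08 CPM in WT and 1.79, 1.77 and 1.53 CPM in MUL1(-/-) and rose with a log2 fold change of 0.79 ± 0.16 (standard error, adjusted p = 0.00102), beside neighbours at 0.039. So of the 3 beta subunits 1 fell and 2 rose at the adjusted p, where 18.7% and 18.8% of all tested genes did. None of the 3 was past both thresholds.

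The KCNIP genes encode calcium-binding proteins that join Shal pores. KCNIP2 stood at 4.39, 5.13 and 5.33 CPM in WT and 4.48, 3.48 and 3.15 CPM in MUL1(-/-). It fell by the adjusted p (0.0278) with overlap of the genotypes and a log2 fold change of -0.42, beside neighbours at -0.45. It no longer passed without the second (adjusted p = 0.0906) or the third (0.0726) WT library, without the second (0.0998) or the third (0.0800) MUL1(-/-) library, on library totals (0.0778), in the most counted bin (0.381) or in bins that no other gene touches (0.0609). KCNIP3 stood at 4.27, 4.32 and 4.48 CPM in WT and 4.06, 3.84 and 3.35 CPM in MUL1(-/-) and KCNIP4 at 1.46, 1.87 and 2.06 CPM in WT and 1.32, 1.48 and 1.84 CPM in MUL1(-/-), and neither passed. KCNE genes encode small single-span subunits. KCNE3, which keeps KCNQ1 open in epithelia, had 0.0236, 0.0141 and 0.0635 CPM in WT and 0.261, 0.136 and 0.129 CPM in MUL1(-/-), that is 3, 2 and 8 counts against 33, 17 and 16. The genotypes did not overlap, and the log2 fold change was 2.37 ± 0.52 (standard error, adjusted p = 0.00218), on so few counts that the standard error is 0.52. KCNE3 passed the filter on low counts only through MUL1(-/-), the group where it was higher, so its adjusted p is no independent support. Of its counts, 43.0% lay in bins that another gene touches, and with those bins left out it was under the filter on low counts. KCNE1, KCNE2 and KCNE5 were tested and did not pass.

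Inward rectifiers pass potassium more easily into the cell than out, and hold the resting potential near that of potassium. The class had 16 genes, 7 at 1 CPM or more in WT and 6 in MUL1(-/-). Of the 11 tested, 4 fell and 1 rose at the adjusted p, where 18.7% and 18.8% of all 25125 tested genes did. The class summed to 42.4, 40.1 and 37.0 CPM in WT and 38.5, 36.2 and 34.5 CPM in MUL1(-/-).

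KCNJ2, the classical strong inward rectifier, lies at chr17:70168673-70180048 on the plus strand. It stood at 1.53, 1.65 and 1.17 CPM in WT and 0.561, 0.839 and 0.613 CPM in MUL1(-/-). The genotypes did not overlap, and the log2 fold change was -1.11 ± 0.20 (standard error, adjusted p = 3.93e-04); without the first MUL1(-/-) library it was -0.99. All 3 of its bins with at least 30 counts were lower without overlap, and its neighbours had a median of 0.026. KCNJ12 stood at 5.82, 5.54 and 5.23 CPM in WT and 6.36, 6.63 and 5.74 CPM in MUL1(-/-), did not pass, and is nearly identical in sequence to KCNJ18, so their counts are uncertain. KCNJ4, a further strong rectifier, stood at 5.59, 5.03 and 4.10 CPM in WT and 3.89, 3.64 and 3.02 CPM in MUL1(-/-). It fell (-0.48 ± 0.14 (standard error, adjusted p = 0.0126)), but 87.0% of its counts lay in bins that an antisense gene also touches, and outside them its adjusted p was 0.115, as it was 0.0801 without the first WT library. KCNJ14 stood at 2.21, 2.09 and 1.91 CPM in WT and 3.95, 3.60 and 4.41 CPM in MUL1(-/-). It rose without overlap by 0.94 ± 0.13 (standard error, adjusted p = 4.03e-05), just inside the fold threshold, with 65.1% of its counts in shared bins and neighbours at 0.41; in the most counted bin it was 1.09, without the second MUL1(-/-) library 1.02, and on library totals 1.01.

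KCNJ8 and KCNJ11 are the pores of ATP-sensitive channels, which close when ATP is high and need the sulfonylurea receptors ABCC8 or ABCC9 as partners. KCNJ11 stood at 10.4, 9.81 and 7.97 CPM in WT and 7.78, 6.55 and 5.46 CPM in MUL1(-/-). It fell without overlap, with a log2 fold change of -0.51 ± 0.13 (standard error, adjusted p = 0.00737). KCNJ8 stood at 12.7, 11.7 and 12.9 CPM in WT and 12.8, 11.7 and 12.6 CPM in MUL1(-/-), with the genotypes overlapping and a log2 fold change of -0.0096 ± 0.090 (standard error, adjusted p = 0.947), and 54.3% of its counts in bins of an overlapping gene. Of the receptors, ABCC8 stood at 3.33, 3.03 and 3.01 CPM in WT and 4.60, 4.63 and 3.45 CPM in MUL1(-/-) and ABCC9 at 0.0630, 0.12 and 0.0635 CPM in WT and 0.0949, 0.288 and 0.315 CPM in MUL1(-/-). Both rose, with log2 fold changes of 0.44 ± 0.13 (standard error, adjusted p = 0.0181) and 1.47 ± 0.45 (standard error, adjusted p = 0.0188). The ABCC9 values rest on 8, 17 and 8 counts in WT and 12, 36 and 39 in MUL1(-/-), its genotypes overlapped, and only in MUL1(-/-) did every library reach 10 counts. KCNJ3, a subunit of the channels that G proteins open, stood at 2.30, 2.08 and 1.75 CPM in WT and 1.15, 1.57 and 1.20 CPM in MUL1(-/-) and fell without overlap (-0.64 ± 0.16 (standard error, adjusted p = 0.00623)).

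Tandem-pore channels, which carry a pair of pore domains in each subunit and leak potassium at rest, numbered 15. Of these 4 reached 1 CPM in WT and 3 in MUL1(-/-), and their summed level was 30.7, 29.4 and 28.9 CPM in WT and 35.5, 34.7 and 29.9 CPM in MUL1(-/-). KCNK6, a weak channel found on endolysosomal membranes, lies at chr19:38319844-38332076 on the plus strand. Its level was 1.64, 1.80 and 1.88 CPM in WT and 0.356, 0.344 and 0.282 CPM in MUL1(-/-). The 3 MUL1(-/-) libraries lay far below all WT libraries, and its log2 fold change of -2.43 ± 0.18 (standard error, adjusted p = 9.48e-08), 5.41-fold, was the lowest of all the members. Under the 19 alternatives it ranged from -2.66 to -2.34. All 4 of its bins with at least 30 counts were lower without overlap, and its neighbours had a median of 0.12. KCNK1, a close relative of KCNK6, moved the other way. It stood at 16.7, 16.2 and 15.3 CPM in WT and 21.9, 21.1 and 18.8 CPM in MUL1(-/-) and rose without overlap, with a log2 fold change of 0.36 ± 0.088 (standard error, adjusted p = 0.00444). KCNK5, an acid-sensitive channel of kidney epithelium, stood at 7.44, 6.89 and 7.53 CPM in WT and 8.43, 8.41 and 7.49 CPM in MUL1(-/-) and did not pass. KCNK15 stood at 2.75, 2.23 and 2.12 CPM in WT and 1.94, 2.13 and 1.54 CPM in MUL1(-/-), with every count in bins that RIMS4 or KCNK15-AS1 also touches, so its level cannot be told from theirs.

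Calcium- and sodium-activated pores numbered 8, of which 3 reached 1 CPM in WT and 2 in MUL1(-/-). Of the 6 tested, 4 fell and 1 rose at the adjusted p, where 18.7% and 18.8% of all 25125 tested genes did. The class summed to 17.1, 16.8 and 14.5 CPM in WT and 9.08, 9.86 and 8.5 CPM in MUL1(-/-). KCNMA1 is the pore of the large-conductance (BK) channel and lies at chr10:76869601-77638369 on the minus strand. It stood at 9.90, 9.32 and 6.79 CPM in WT and 4.06, 4.43 and 4.03 CPM in MUL1(-/-). The genotypes did not overlap, and the log2 fold change was -1.05 ± 0.13 (standard error, adjusted p = 2.20e-05). All 41 of its bins with at least 30 counts were lower, 25 without overlap. It was inside the fold threshold without the first WT library (-0.95) and on library totals (-0.98), and its neighbours had a median of -0.57, less which it was -0.48.

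**Figure D3:**
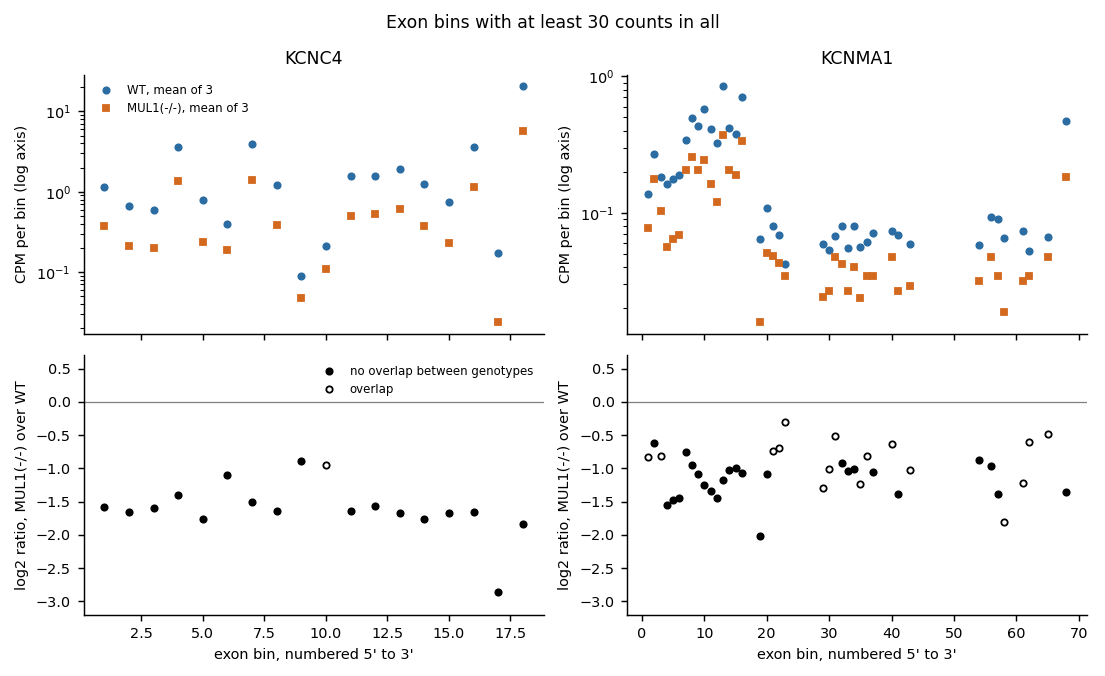
Exon bins of KCNC4 (left) and KCNMA1 (right) with at least 30 counts, numbered 5' to 3' along the gene. The upper panels give the mean CPM per bin in WT (circles) and MUL1(-/-) (squares) on a log axis, and the lower ones the log2 ratio of MUL1(-/-) over WT, filled where the genotypes did not overlap; 17 of the 18 KCNC4 bins and 25 of the 41 KCNMA1 bins were lower without overlap.

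The KCNN genes encode the small- and intermediate-conductance channels that calmodulin opens. KCNN3 lies at chr1:154697455-154870280 on the minus strand and stood at 1.5, 1.51 and 1.58 CPM in WT and 0.783, 0.783 and 0.5 CPM in MUL1(-/-). The genotypes did not overlap, with a log2 fold change of -1.15 ± 0.18 (standard error, adjusted p = 1.73e-04) and neighbours at 0.025. All 9 bins with at least 30 counts were lower without overlap, but by unequal amounts, from -2.07 to -0.52, and the least decline was in the most counted bin, on which alone the adjusted p was 0.126. Without the third MUL1(-/-) library the log2 fold change was -0.96. KCNN1 stood at 4.60, 4.60 and 5.03 CPM in WT and 2.73, 3.24 and 2.49 CPM in MUL1(-/-) and fell without overlap (-0.75 ± 0.13 (standard error, adjusted p = 2.52e-04)), beside neighbours at -0.37. KCNN4 was under 1 CPM and did not pass. KCNT1 rose and KCNT2 fell, both under 1 CPM.

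BK auxiliary subunits, 4 genes with 2 at 1 CPM or more in both genotypes, tune the calcium sensitivity of the KCNMA1 pore and summed to 16.8, 15.3 and 15.3 CPM in WT and 13.5, 14.4 and 13.1 CPM in MUL1(-/-). KCNMB4, the neuronal one, stood at 13.4, 11.9 and 11.7 CPM in WT and 9.15, 9.95 and 8.99 CPM in MUL1(-/-). It fell without overlap, with a log2 fold change of -0.39 ± 0.096 (standard error, adjusted p = 0.00430), in the same direction as the pore but by less. KCNMB3 stood at 3.44, 3.36 and 3.58 CPM in WT and 4.30, 4.35 and 4.08 CPM in MUL1(-/-) and rose (0.29 ± 0.11 (standard error, adjusted p = 0.0483)), with 79.8% of its counts in bins shared with PIK3CA; outside them the adjusted p was 0.117. It did not pass in 10 of its 19 alternatives, among them those without any 1 of the WT libraries or without the first or the second MUL1(-/-) library (adjusted p from 0.0524 to 0.164). KCNMB1 and KCNMB2 were under the filter on low counts.

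The calls differed in how far the surrounding genes moved with them. KCNC4, KCNK6, KCNN3 and KCNJ2 fell beside neighbours with medians between 0.0052 and 0.12. KCNMA1 fell beside neighbours at -0.57. When the median of the 20 nearest tested genes was taken off each log2 fold change, 4 members were past both thresholds as lower and 3 as higher. The adjusted p used there was that of the log2 fold change before the median was taken off. No p was computed for the difference from the neighbours.

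**Figure D4:**
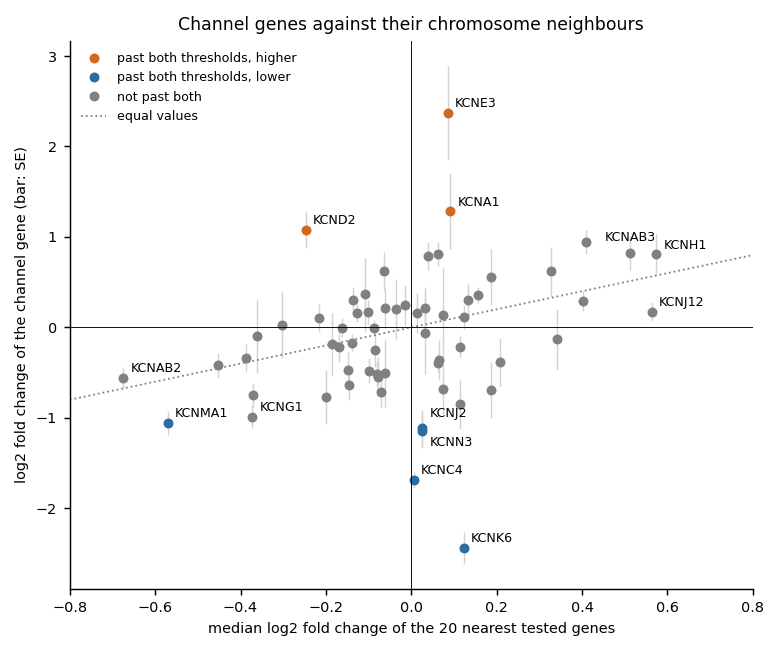
Log2 fold change of 62 of the 66 tested channel genes with its standard error (vertical) against the median log2 fold change of the 20 nearest tested genes, 10 on each side (horizontal). KCNC4, KCNK6, KCNN3 and KCNJ2 lie near 0 on the horizontal axis, and KCNMA1 at -0.57.

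The 54 genes under 1 CPM in both genotypes included 25 that were tested and 28 with bins of their own that were not. The 28 had at most 21 counts in any library, and 8 of them (KCNA5, KCNA10, KCNG4, KCNJ15, KCNK16, KCNK17, KCNK18 and KCNMB1) had 3 counts or fewer in all 6, which is at most 0.0212 to 0.0242 CPM by library, a limit that covers counting error only, and they cannot be told from absent. Of the 20 with more than 3 counts in a library, 8 were higher in MUL1(-/-) without overlap (KCNA4, KCNH5, KCNK2, KCNK4, KCNK10, KCNMB2, KCNN2 and KCNV1) and 1 lower (KCNIP1, with 13, 9 and 11 counts against 0, 0 and 2). For KCNK10 and KCNV1 the highest WT and the lowest MUL1(-/-) library both had 4 counts, and only the scaling set them apart. In KCNK4 these libraries had 5 and 6 counts, and in KCNN2 3 and 5. Over all 9885 genes under the filter with more than 3 counts in a library, 10.2% were higher and 6.5% lower without overlap. Over the 1785 protein-coding ones it was 16.5% and 3.87%.

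The direction of the mean difference was also counted by level, whether or not a member passed the test. Among members with a mean of 0.01 to 0.1 CPM over the 6 libraries, 15 of 20 (75.0%) had the higher mean in MUL1(-/-), where 51.7% of all genes and 67.6% of protein-coding genes at that level did. Between 0.1 and 1 CPM it was 16 of 26 (61.5%; 49.5% and 60.9%), between 1 and 10 CPM 12 of 29 (41.4%; 47.8% and 47.5%), and at 10 CPM or more 1 of 10 (10.0%; 49.0% and 49.4%), that gene being KCNK1. From 0.1 to 1 CPM the share of members was near that of protein-coding genes. KCNJ8 and KCNQ5 count as lower at 10 CPM or more but did not pass the test (adjusted p = 0.947 and 0.167 in edgeR). Of the 4 blood markers 3 were tested, and 2 passed both thresholds as higher in MUL1(-/-). Of the 3 endothelial markers 2 were tested, and these 2 passed as higher, as given above. The part of the blood and endothelial markers here was not tested.

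**Figure D5:**
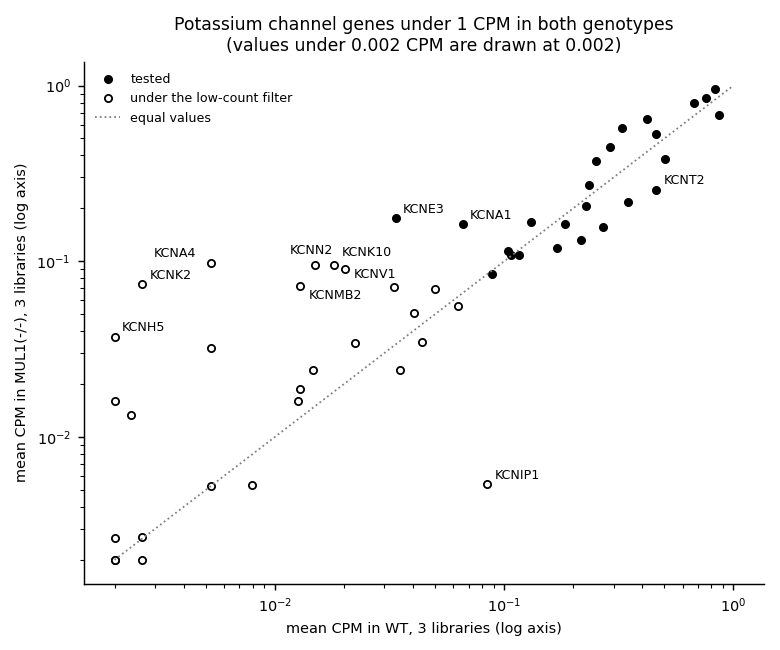
Mean CPM in WT (horizontal) and in MUL1(-/-) (vertical), both on log axes, for the 53 channel genes with bins of their own under 1 CPM in both genotypes; values under 0.002 CPM are drawn at 0.002. Filled points were tested and open ones lay under the filter on low counts; most open points named lie above the dotted line of equal values, and KCNIP1 below it.

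Beside the channels, 46 other genes that handle potassium were compared, of which 35 were tested and 6 had 3 counts or fewer in every library. At both thresholds 2 rose and 2 fell, where 4.23% and 3.87% of all 25125 tested genes did. At the adjusted p alone 7 rose and 8 fell, where 18.8% and 18.7% of all tested genes did. FXYD6, a small regulator of the sodium-potassium pump, stood at 24.4, 23.4 and 21.7 CPM in WT and 5.83, 6.23 and 8.63 CPM in MUL1(-/-). It fell without overlap, with a log2 fold change of -1.75 ± 0.13 (standard error, adjusted p = 9.48e-08), and FXYD3, a relative, rose from 0.195 to 0.460 CPM (1.23 ± 0.29 (standard error, adjusted p = 0.00394)). TMEM38A, a potassium-permeable channel of the endoplasmic reticulum, stood at 13.0, 12.8 and 15.4 CPM in WT and 5.79, 5.10 and 4.63 CPM in MUL1(-/-) and fell with a log2 fold change of -1.41 ± 0.11 (standard error, adjusted p = 2.68e-07). ABCC9, described with its pores, was the other that rose. The median log2 fold change of the 35 genes was -0.08.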

How the data were processed

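RNA of HEK293 cells was analysed in 3 WT and 3 MUL1(-/-) libraries, grouped by the genotype in the sample labels. Per the labels, libraries were made from total RNA with an mRNA kit, and the submitters' processing notes name Trimmomatic 0.36, STAR 2.5.2b and GRCh38; the counting program is not given in the sources used here. The authors deposited raw counts per exon bin (597973 bins), not normalized, in which overlapping genes of 1 strand share an identifier. The analysis plan assumed counts per gene, so the counts of a gene's bins were summed. Bins of 2031 joined identifiers (20.98% of counts) were given to a gene where GENCODE 29 exons of exactly 1 member touched them, and 4.3728% of counts lay in bins given to no gene. A read touching several bins is counted in each, so sums exceed the number of reads and their precision is overstated; strand was not used in the counting, as 15 pairs of opposite bins had a median ratio of 1.0. Reads of antisense or overlapping genes therefore cannot be told apart.

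Gene counts were fitted with edgeR 4.0.16 in R 4.3.3 (TMM, filterByExpr with a minimum count of 10, quasi-likelihood test, Benjamini-Hochberg over 25125 genes) and called where the adjusted p was under 0.05 and the log2 fold change beyond 1 in size, the thresholds of the study's methods, whose test was DESeq2's. Alternatives were DESeq2 1.42.0, limma 3.58.1 (voom), RLE factors, library totals, other filters, a block for the replicate number, leaving out single replicates, the adjusted p alone, the most counted bin, bins that no other gene touches, joined identifiers whole, protein-coding genes only and the difference from the 20 nearest genes; for the 1 CPM listing they were 0.5 and 2 CPM, every library, and CPM per kb. A further 1, giving shared bins to every gene of a joined identifier, was chosen after seeing the data. On simulated data for 25125 genes with 200 changed by a log2 fold change of 2, edgeR recovered 200 with 2 false calls. The changed genes were drawn only from those above a minimum mean level. The simulation therefore does not cover changes near a log2 fold change of 1 or genes as weakly counted as KCNE3 and KCNA1. Replicates differed by 2.95 to 10.8 times the sampling noise (chi-square over degrees of freedom), so each was kept. Tables and plots used Python 3.11.15, pandas 2.3.3 and matplotlib 3.10.9.

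The members and lists were chosen with earlier results of these data known. Named with every library's value were members at a mean of 1 CPM or more in either genotype and members past both thresholds; others are given by class or symbol. Of the 46 other potassium genes those past both thresholds are named, and ABCC8 was named after its values were seen. Results on some genes are not reported here, although counts over the lists include them. Promoters came from RefSeq, and motifs were searched on both strands of 300 bases; among the genes without an entry were KCNA1, KCNAB3, KCNB2, KCNE4, KCNG1, KCNH3, KCNH7, KCNJ9, KCNJ11, KCNJ12, KCNK9, KCNK12, KCNK15, KCNMB4, KCNQ1, KCNQ3, KCNS1, KCNS2, KCNU1 and KCNV1.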

Additional observations from a re-analysis of the deposited data

How the results depend on the processing

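Of the 6 genes called lower and 3 called higher, the lower count was 4 to 7 under the other tests, filters, ways of counting and scalings. The 4 was less the neighbours' median, with the adjusted p of the main test kept. With the adjusted p alone the lower count was 16, and each library left out gave 5 to 8. The higher count was less stable. It was 5 with DESeq2 (10 at an unadjusted p under 0.05), 10 with no filter on low counts and 11 with the adjusted p alone, and leaving out 1 library gave 2 to 9, with 5 without the first or the second WT library, 9 without the third WT library and 8 without the third MUL1(-/-) library. Where 3 libraries had to reach 1 CPM it was 0 in edgeR, and 0 at an unadjusted p, since KCND2, KCNA1 and KCNE3 are then not tested. At 1 CPM per kb of exon the genes listed were 17 in WT and 18 in MUL1(-/-), in place of 38 and 38.

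In the fit with a replicate block, 3 genes were higher and 6 lower, and no call at both thresholds changed. At the adjusted p alone, KCNMB3 no longer passed (0.0611 in place of 0.0483) and KCNA2 did (0.0397 in place of 0.0617). Same-numbered libraries deviated together with r of -0.0812, 0.157 and 0.1 over 15858 genes (mean of other pairs -0.0262). With 3 libraries a genotype, these values cannot decide whether the numbers pair the samples.

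Single log2 fold changes kept their direction and their call at both thresholds in 689 of the settings run, with 11 weaker, 7 stronger and 27 reversed. A change of the adjusted p alone is not counted there. Among the genes named with values, the adjusted p crossed 0.05 most often for KCNMB3 (10 of 19 alternatives), KCNIP2 (7 of 19) and KCNA2 (5 of 19). Less the median of the 20 nearest genes, the values that reversed were -0.11 for KCNMB3, -0.39 for KCNJ12, 0.047 for KCNK15, 0.12 for KCNAB2, 0.035 for KCNIP2, and -0.0077 for KCNB2, with 0.079 for KCNJ8 and 0.16 for KCNG3. KCND1 was -0.0036 to 0.26 without 1 library, the lowest without the second WT library. KCNJ8 was 0.061 on library totals, 0.021 with no filter, 0.0033 at 1 CPM in 3 libraries and 0.036 in the most counted bin, and -0.055 to 0.041 without 1 library. KCNG3 was 0.0067 with DESeq2, 0.0055 with RLE factors, 0.068 on library totals, 0.028 with no filter, 0.0099 at 1 CPM in 3 libraries, 0.0019 in bins no other gene touches, 0.0068 with joined identifiers whole, 0.0041 with shared bins given to every gene, and -0.026 to 0.024 without 1 library. Why these moved was not tested. Depth limits the genes under 1 CPM, where 1 count is 0.00707 to 0.00807 CPM, and 3 libraries a genotype limit the spread that can be seen.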

Other observations

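Several of the genes lie near one another. On chromosome 1, KCNC4 lies 237 kb from KCNA2, 389 kb from KCNA3 and 1488 kb from KCND3; KCNC4 had a log2 fold change of -1.69 ± 0.087 (SE), KCNA2 of -0.54 ± 0.22, KCNA3 of -0.25 ± 0.18 and KCND3 of 0.24 ± 0.22, and KCNC4 alone of these 4 passed the test, with adjusted p-values of 0.0617, 0.304 and 0.432 for the others. The differences between these genes were not tested.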
